A study of Mus musculus with 42 samples.

Results

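The genes described here had higher levels at 48 h than at either end of a 5 day course of embryonic stem cell differentiation. They were selected on the log2 CPM values of the libraries at 0 h, 48 h and 120 h. A gene was a member if its 48 h value was 0 or more and lay at least 1.5 above both its 0 h and its 120 h value, in replicate A and in replicate B alike. Of 14296 genes in the files, 168 met this rule. For comparison, 390 genes met the opposite rule, with values of 0 or more at 0 h and 120 h and a 48 h value at least 1.5 below both. The height at 48 h and the lower values at both ends are therefore what chose the members, and those values are given below as a description with no test.

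The study followed W9.5 mouse embryonic stem cells, of strain 129X1/SvJ in the labels and at low passage, which formed embryoid bodies and differentiated spontaneously after withdrawal of the cytokine LIF. Stranded libraries of poly-A RNA were made every 6 h from 0 h to 120 h, which gives 21 time points and, with a library of replicate A and one of replicate B at each, 42 libraries. All libraries came from 1 unmodified cell line and no culture was held undifferentiated alongside, so each time point is compared with other time points of the same courses. The values describe whole embryoid bodies, in which fewer cells of a type and less RNA per cell cannot be told apart.

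Embryonic stem cells kept in LIF resemble the naive epiblast of the blastocyst. Once LIF is gone they pass through a formative and then a primed state, which resembles the epiblast around implantation, before the germ layers appear. The change of state is known for the loss of naive factors such as Esrrb and Klf4, and for the gain of the de novo DNA methyltransferases, of the POU factor Pou3f1 (Oct6) and of the growth factor Fgf5. Genes of the primitive streak and the germ layers follow later.

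The reads counted on these genes ranged from 10120972 to 51652434 per library, and 3 reads corresponded to 0.0571 to 0.316 CPM depending on the library. Pou5f1 and Sox2, which define pluripotent cells, were high throughout, at 8.29 to 10.52 and 7.18 to 9.43 log2 CPM over the 42 libraries. The replicates stood furthest apart at 96 h, where 13.5% of all genes differed by 1 or more on the log2 scale between A and B. No contrast below compares the 96 h libraries. They are among the 36 libraries of the fit, so their difference enters the spread used in every test below. Summed levels of the 7 marker lists for streak, germ layer, germ cell, trophoblast and fibroblast genes were lower at 48 h than at 120 h in both replicates. The 12 measured primitive streak genes summed to 32.4 and 32.0 CPM at 48 h and to 141 and 126 CPM at 120 h in A and B. The 9 fibroblast genes summed to 51.0 and 48.6 CPM at 48 h and to 277 and 256 CPM at 120 h. The 8 trophoblast genes summed to 10.2 and 9.93 CPM at 48 h and to 145 and 160 CPM at 120 h. The genes of these lists with 0 to 3 reads in both 48 h libraries were Evx1, Lhx1 and Sp5 (streak), Pax3 (neuroectoderm), Gata6 (endoderm), Foxf1 (mesoderm and blood), Gata3 (trophoblast), and Acta2 and Postn (fibroblast). What part these cell types had in the fall of the members was not tested.

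The sequences just before the start sites of some members are printed first, because the later sections refer to genes whose promoters share a motif. Windows of 250 bases before the start, on GRCm38.p6 and from RefSeq, were found for 94 of the 168 members and for 9761 of all genes in the files, each within 1000 bases of the annotated gene start. Dnmt3b and Lef1 are shown as promoters of formative genes that carry the GC box GGGCGG, in capitals on either strand.
Dnmt3b (chr2:153649199-153649448, plus strand): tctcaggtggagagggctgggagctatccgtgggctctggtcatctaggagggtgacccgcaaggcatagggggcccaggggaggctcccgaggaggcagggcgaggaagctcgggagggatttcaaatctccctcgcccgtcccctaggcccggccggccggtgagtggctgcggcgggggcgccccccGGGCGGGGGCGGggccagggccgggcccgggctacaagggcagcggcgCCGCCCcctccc
Lef1 (chr3:131110073-131110322, plus strand): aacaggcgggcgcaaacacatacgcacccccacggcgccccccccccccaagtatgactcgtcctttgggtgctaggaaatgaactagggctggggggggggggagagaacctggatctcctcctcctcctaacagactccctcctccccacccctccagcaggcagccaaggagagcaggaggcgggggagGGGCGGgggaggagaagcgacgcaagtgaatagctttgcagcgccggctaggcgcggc

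The GC box was found in 48 of the 94 member windows, which is 51.1%, and in 62.2% of all windows. The POU octamer ATGCAAAT, a sequence bound by POU factors, was found on either strand in 6 member windows. That is 6.38% of them, against 1.29% of all windows. The octamer was singled out after the shares of all 14 motifs were seen. The 6 windows are shown in full, each written 5′ to 3′ along the gene, with the octamer or its reverse complement ATTTGCAT in capitals.
Pim2 (chrX:7878056-7878305, plus strand): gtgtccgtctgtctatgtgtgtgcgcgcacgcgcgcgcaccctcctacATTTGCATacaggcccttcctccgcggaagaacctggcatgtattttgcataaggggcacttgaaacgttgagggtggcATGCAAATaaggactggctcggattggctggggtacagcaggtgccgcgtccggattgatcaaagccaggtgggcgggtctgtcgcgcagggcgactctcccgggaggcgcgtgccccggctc
Prrt3 (chr6:113501932-113502181, minus strand): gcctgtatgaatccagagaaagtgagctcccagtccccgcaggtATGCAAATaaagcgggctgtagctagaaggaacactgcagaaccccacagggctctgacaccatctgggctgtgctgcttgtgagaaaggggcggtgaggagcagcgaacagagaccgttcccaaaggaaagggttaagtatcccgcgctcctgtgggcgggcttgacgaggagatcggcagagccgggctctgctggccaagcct
Acsbg1 (chr9:54661886-54662135, minus strand): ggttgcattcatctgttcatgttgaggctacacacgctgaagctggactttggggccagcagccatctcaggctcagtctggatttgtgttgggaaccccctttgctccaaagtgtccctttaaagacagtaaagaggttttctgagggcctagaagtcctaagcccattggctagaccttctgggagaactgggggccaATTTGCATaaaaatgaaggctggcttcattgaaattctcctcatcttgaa
Pcdh8 (chr14:79771313-79771562, minus strand): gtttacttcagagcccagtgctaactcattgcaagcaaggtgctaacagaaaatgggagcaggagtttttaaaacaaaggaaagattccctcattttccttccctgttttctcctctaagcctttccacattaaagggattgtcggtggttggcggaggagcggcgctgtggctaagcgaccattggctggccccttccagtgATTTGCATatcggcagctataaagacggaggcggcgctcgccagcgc
Gm14124 (chr2:150257267-150257516, plus strand): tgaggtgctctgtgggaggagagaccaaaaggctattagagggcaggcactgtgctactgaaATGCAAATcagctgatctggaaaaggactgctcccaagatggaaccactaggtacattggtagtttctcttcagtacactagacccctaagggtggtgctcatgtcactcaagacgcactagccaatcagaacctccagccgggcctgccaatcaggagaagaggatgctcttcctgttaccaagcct
Gm14139 (chr2:150181505-150181754, plus strand): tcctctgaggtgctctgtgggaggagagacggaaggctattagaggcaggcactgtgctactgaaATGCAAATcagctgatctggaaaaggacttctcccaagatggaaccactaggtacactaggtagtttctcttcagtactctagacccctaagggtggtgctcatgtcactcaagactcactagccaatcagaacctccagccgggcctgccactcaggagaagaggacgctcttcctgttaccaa

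Pim2, which encodes a serine/threonine kinase, had 2 octamers in opposite orientation. The windows of Gm14124 and Gm14139, which lie near each other on chromosome 2, were 95.5% identical over 247 aligned positions, so their octamers are copies of each other and count as 1 sequence. The other motifs searched on both strands were the TATA box (written as TATAAA), the CCAAT sequence, GGATTA (OTX site), CTTTGA (TCF/LEF site), CACGTG (E-box), TGACGTCA (CRE), TGAGTCA (AP-1 site), CAGCAGG (ZIC site), CAGACA (SMAD element), CCGGAAG (ETS site), AAGATGGCG (YY1 site) and the NRF1 site. No motif was masked where it overlapped another. The ETS letters were in 5.32% of member windows and 14.005% of all windows, and the SMAD letters in 15.96% and 12.75%. The CRE and YY1 letters were in 0 member windows, and in 2.86% and 1.19% of all windows. The median number of CpG dinucleotides was 12 in the member windows and 16 in all windows, at a median GC content of 60.2% and 60.8%. A match is a run of letters and no measure of binding.

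The members were mostly protein coding genes, 156 of 168. There were 5 noncoding RNA genes, 5 pseudogenes, 1 snoRNA gene and 1 identifier that the annotation does not hold. The X chromosome held 16 members, which is 9.52% of them, while it holds 3.53% of all genes in the files. Among gene families, 3 of 39 potassium channel genes (Kcn), 6 of 257 solute carriers (Slc) and 4 of 369 Zfp genes were members, where members make up 1.18% of all genes. The 48 h libraries were enough for each member to pass the authors' filter on low values, so passing it was built into the rule.

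At 48 h the level of the members ran from 0.19 to 10.56 log2 CPM, with a median of 2.38, and 63 members lay below 2. The excess of the 48 h mean over the higher of the 0 h and 120 h means had a median of 2.12 and reached 6.75. At 120 h the members had not all returned to where they began. The 120 h mean was above the 0 h mean in 109 members and below it in 59, and the median difference was 0.38. In 54 members it was at least 1 above and in 12 at least 1 below. At the lower edge of the rule, Usp26 had excesses of 2.22 and 1.505 in A and B, Elmo1 1.55 and 1.51, and Ap4s1 1.61 and 1.52. Just outside it, Zfp640 had 1.49 and 1.57 and Scn3a 1.83 and 1.47.

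**Figure D1:**
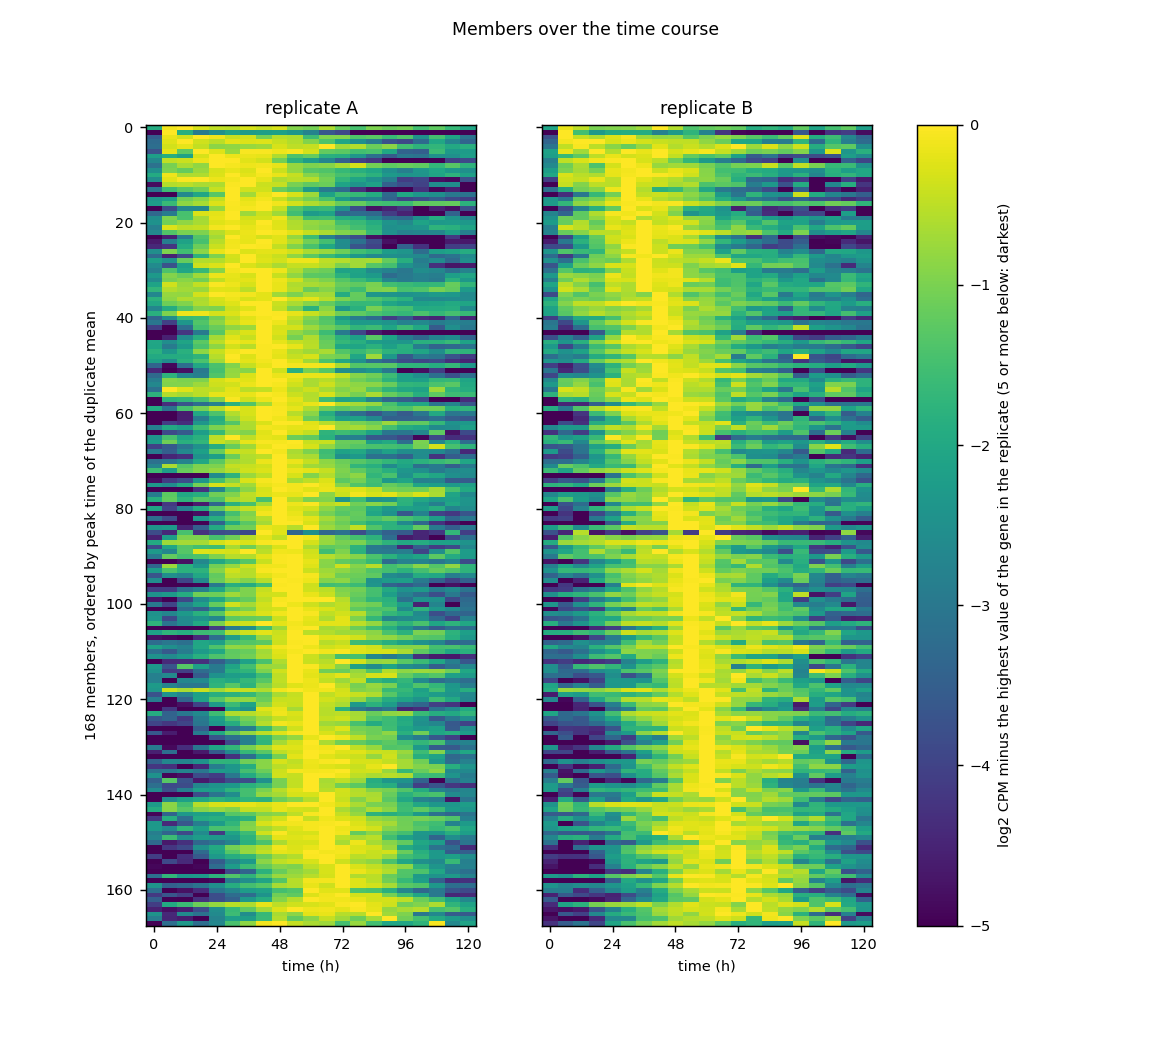
Each row is 1 of the 168 members and each column a time point in hours, for replicate A on the left and B on the right. Colour gives log2 CPM minus the highest value of the gene in that replicate, and rows are ordered by the time of the highest duplicate mean, so the bright band runs from early to late peaks, with 156 of the members at 30 to 72 h.

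The name mid-course fits most members in a broad sense and fewer in a strict one. By the duplicate mean, 87 members (51.8%) were highest at 42 to 54 h, 31 before that and 50 after it. At 30 to 72 h were 156 (92.9%). The peak time was the same in A and B for 55 members and for 146 within 12 h, while for 22 it differed by more than 12 h. Neighbouring time points near the peak often differed by less than the replicates did, so single peak times are approximate.

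**Figure D2:**
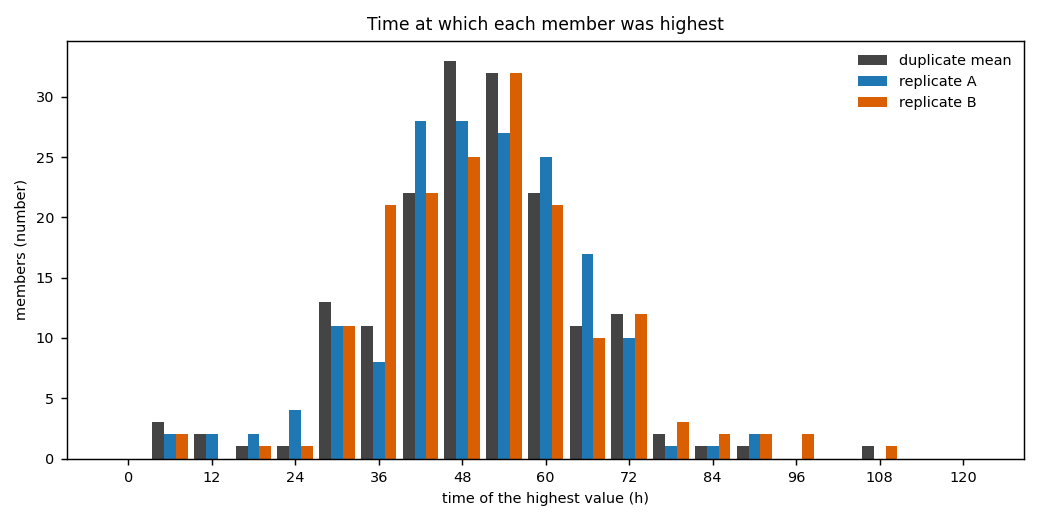
Bars give the number of members (vertical axis) whose highest value fell at each time in hours (horizontal axis), by the duplicate mean and in each replicate. The bars cluster around the 48 h that chose the members, and 87 of 168 are at 42 to 54 h by the duplicate mean.

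Relative to 48 h, the median log2 difference of the members was -2.75 at 0 h, -2.69 at 6 h and -1.15 at 24 h. It was -0.23 at 42 h and -0.07 at 54 h. On the way down it was -1.02 at 78 h, -1.73 at 96 h and -2.31 at 114 h. The rule placed its later end point further from 48 h than its earlier one, so the lengths of rise and fall are not compared. The midpoint between the 0 h value and the peak was crossed at a median of 24 h, by 30 members already at 6 h and by 31 only at 36 to 48 h. The last time above the midpoint between the peak and the 120 h value had a median of 78 h. In the first 6 h, 51 members rose by 1 or more in both replicates (30.4%, against 8.36% of all genes) and 16 fell by 1 or more (9.52%, against 13.6%). These counts rest on the 0 h libraries that chose the members and are a description.

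To compare time points that took no part in the choice, 1 model was fitted with limma to the 36 libraries of the other 18 time points. The 6 h, 42 h, 54 h and 114 h libraries lie only 6 h from those of the rule, in the same courses. A rise from 6 h to 42 h and a fall from 54 h to 114 h were therefore largely built into the choice. Their calls describe the members and are no independent support for the peak. A call is an adjusted p under 0.0001 (Benjamini-Hochberg over 14296 genes). The 7 contrasts share libraries, so their counts are given side by side and are not independent. The replicates are named biological duplicates in the study, and with 2 libraries per time point the spread is estimated over all 18 time points together.

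The rise was seen between 6 h and 42 h. Between these times 102 members were called higher and 0 lower, with a median log2 difference of 2.50 (quartiles 1.12 and 3.75). Of all genes, 10.2% were called higher and 9.25% lower, with a median of 0.02. From 6 h to 24 h, 58 members were called higher and 1 lower, with a median of 1.31. Of all genes, 4.8% were called higher and 4.84% lower there. The member called lower was Miat, a long noncoding RNA, which had 3.50 and 3.55 log2 CPM at 6 h in A and B and 0.49 and 0.28 at 24 h before it rose again to 3.79 and 3.43 at 48 h. From 24 h to 42 h, 28 members were called higher and 0 lower (median 0.89), and 1.64% of all genes were called higher and 1.81% lower. Without any 1 of the 4 libraries of that contrast, 13 to 17 members were called.

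The fall was seen between 54 h and 114 h. Over that span, 109 members were called lower and 0 higher, with a median log2 difference of -2.28 (quartiles -3.02 and -1.59). Of all genes, 6.48% were called lower and 9.9% higher. The 54 h value was above the 114 h value in 167 of 168 members. The exception was Pgam1-ps2, a processed pseudogene whose reads may be shared with its parent gene and which was named here after its values were seen. It had 2.15 and 1.63 log2 CPM at 54 h and 3.80 and 4.90 at 114 h, and stood at 4.04 and 5.19 at 12 h. At 42 h it differed widely between the replicates, with 1493 reads in A and 111 in B. From 54 h to 78 h, 20 members were called lower and 0 higher (median -0.85), and 1.31% of all genes were called lower and 2.62% higher. Without any 1 of the 4 libraries of that contrast, 7 to 11 members were called. From 78 h to 114 h, 58 members were called lower and 0 higher (median -1.39), and 3.5% of all genes were called lower and 4.44% higher. Without any 1 of the 4 libraries of that contrast, 30 to 43 members were called.

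Called both higher from 6 h to 42 h and lower from 54 h to 114 h were 83 members (49.4%) and 373 of all genes (2.61%), while 40 members were called in neither. Among the 63 members with a 48 h level under 2, 21 were called in both. Among the 39 members at 5 or more, 24 were. From 6 h to 114 h, the first and last time points outside the rule, 40 members were called higher and 19 lower, with a median of 0.09. The 6 h level does not stand for the start, since 51 members had risen and 16 had fallen by 1 or more in both replicates by then. Of all genes, 15.8% were called higher and 8.94% lower in the fit that gave the 40 and 19 members. With voom weights, 20 members were called higher and 13 lower, and the shares of all genes given here are not those of that setting.

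**Figure D3:**
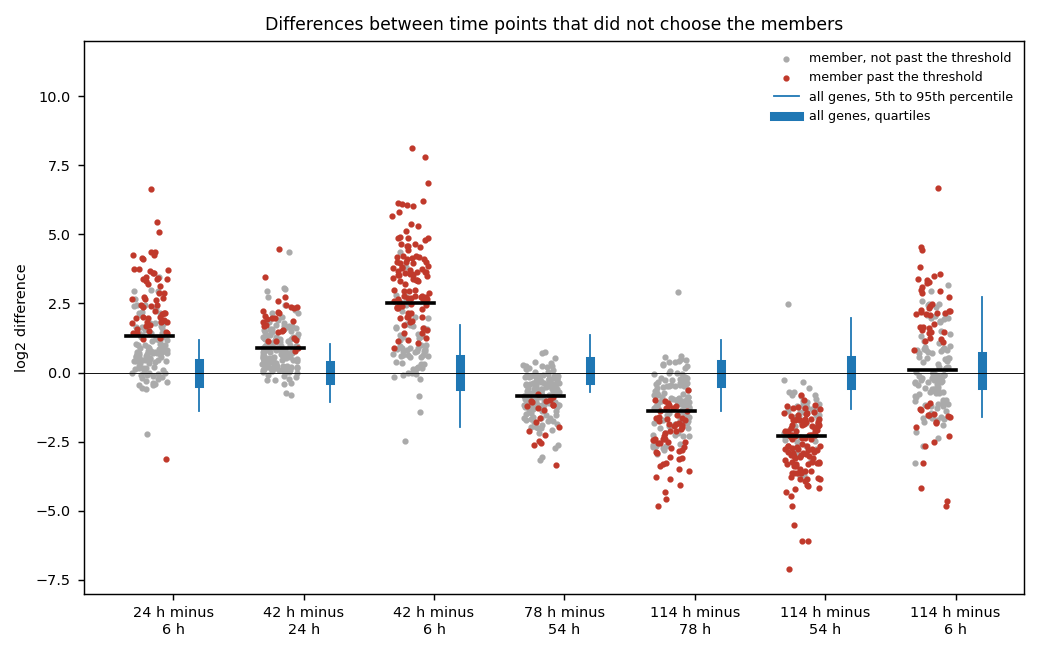
The vertical axis is the log2 difference between 2 time points and the horizontal axis lists 7 contrasts of libraries that did not choose the members. Each point is a member (red past the threshold of adjusted p under 0.0001), the black line is the median over members, and the blue bars give the quartiles and the 5th to 95th percentiles of all genes. The medians of the members lie above 0 in the contrasts up to 42 h (0.89 to 2.50) and below 0 in those from 54 h on (-2.28 to -0.85), with single members on the other side of 0.

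Formative and primed epiblast genes were the list with the most members. The lists were chosen with earlier results of these data known. Of its 25 genes, 7 were members, where members make up 1.18% of all genes: Dnmt3a, Dnmt3b, Pou3f1, Lef1, Sox3, Grhl2 and Enpp2. In the 42 h minus 6 h contrast 18 of the 25 genes rose and 0 fell, with a median of 1.93. Of all genes, 10.2% were called higher and 9.25% lower there. From 54 h to 114 h, 0 rose and 13 fell, with a median of -0.88, while 9.9% of all genes were called higher and 6.48% lower. Much of the list stayed up: from 6 h to 114 h, 16 of the 25 were called higher and 5 lower, with a median of 1.54. Of all genes, 15.8% were called higher and 8.94% lower over that span. Fgf5 is the best known gene of the list that was no member, because it did not come down: its duplicate mean was 6.57 log2 CPM at 48 h and 6.33 at 120 h. Of 18 naive pluripotency genes 0 were members and 8 had the opposite course, with 48 h below both ends. In the first of these contrasts 14 of the 18 fell and 1 rose.

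Dnmt3b and Dnmt3a encode the enzymes that methylate DNA de novo. Dnmt3b had the highest level of all members per kb of exon, and its 48 h values were 10.61 and 10.51 log2 CPM in A and B. It stood at 6.49 and 6.45 at 6 h, 8.57 and 8.57 at 24 h, 10.16 and 10.004 at 42 h, 10.60 and 10.56 at 54 h and 7.97 and 7.88 at 114 h. A and B lay close together, and the 6 h, 24 h and 114 h pairs did not overlap those of 42 h or 54 h. The rise from 6 h to 42 h was 3.61 ± 0.12 (SE, limma adjusted p = 1.02e-17), and the fall from 54 h to 114 h was -2.65 ± 0.12 (limma adjusted p = 4.43e-15). Dnmt3a ran earlier. It dipped from 6.51 and 6.46 at 0 h to 5.50 and 5.57 at 6 h, was highest at 42 h with 9.56 and 9.49, and was back at 7.28 and 7.30 by 78 h. From 54 h to 78 h it fell by 1.66 ± 0.10 on the log2 scale (limma adjusted p = 2.55e-11). Both stayed above their 6 h level at 114 h, Dnmt3b by 1.46 ± 0.12 (limma adjusted p = 1.27e-10) and Dnmt3a by 1.13 ± 0.10 (7.11e-10). For Dnmt3a this is measured from its dip at 6 h. Its duplicate mean at 114 h was 6.66, close to the 6.49 of 0 h, while that of Dnmt3b was 7.93 at 114 h and 6.44 at 0 h. Of the 13 DNA methylation genes listed, 3 rose from 6 h to 42 h, the third being Dnmt3l, the catalytically inactive partner of the DNMT3 enzymes, which did not meet the rule.

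Pou3f1, a POU transcription factor of the primed epiblast, had 3.96 and 4.01 log2 CPM at 6 h, 7.38 and 7.36 at 42 h, 7.496 and 7.54 at 54 h and 6.08 and 6.04 at 114 h. It rose by 3.38 ± 0.19 from 6 h to 42 h (limma adjusted p = 2.77e-13), fell by 1.46 ± 0.19 from 54 h to 114 h on the log2 scale (7.36e-07), and was still 2.08 ± 0.19 above 6 h at 114 h (1.23e-09). At 108 h it stood at 7.21 and 7.33, above both neighbouring time points in each replicate. A value at 108 h above both neighbouring time points, in A and B, was found in 28 members (16.7%) and in 19.5% of all genes. By 0.5 or more, as in Pou3f1, it was found in 9 members (5.36%) and in 1.94% of all genes.

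Lef1, a transcription factor through which Wnt signals act, was the formative member with the largest rise from 6 h to 42 h. It had 0.41 and -0.24 log2 CPM at 6 h, 5.11 and 5.19 at 24 h, 7.02 and 6.86 at 42 h, 6.71 and 6.77 at 54 h and 3.49 and 3.83 at 114 h. The rise from 6 h to 42 h was 6.86 ± 0.30 (limma adjusted p = 4.27e-15) and the fall from 54 h to 114 h was -3.08 ± 0.30 (1.06e-08). Enpp2, which encodes the lysophospholipase autotaxin, held its level longer. It had 0.15 and -0.34 at 6 h, 6.01 and 6.22 at 42 h, 6.24 and 6.14 at 54 h and still 6.24 and 6.06 at 78 h, then 2.94 and 2.81 at 114 h. The rise to 42 h was 6.22 ± 0.14 (limma adjusted p = 2.52e-20), and the fall lay between 78 h and 114 h (-3.28 ± 0.14, 1.63e-14). Sox3, an X-linked SOXB1 factor, rose by 3.74 ± 0.26 and fell by 2.12 ± 0.26, and Grhl2, a regulator of epithelial genes, rose by 1.61 ± 0.11 and fell by 0.82 ± 0.11 over the same spans on the log2 scale (limma adjusted p between 6.68e-12 and 7.69e-07).

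**Figure D4:**
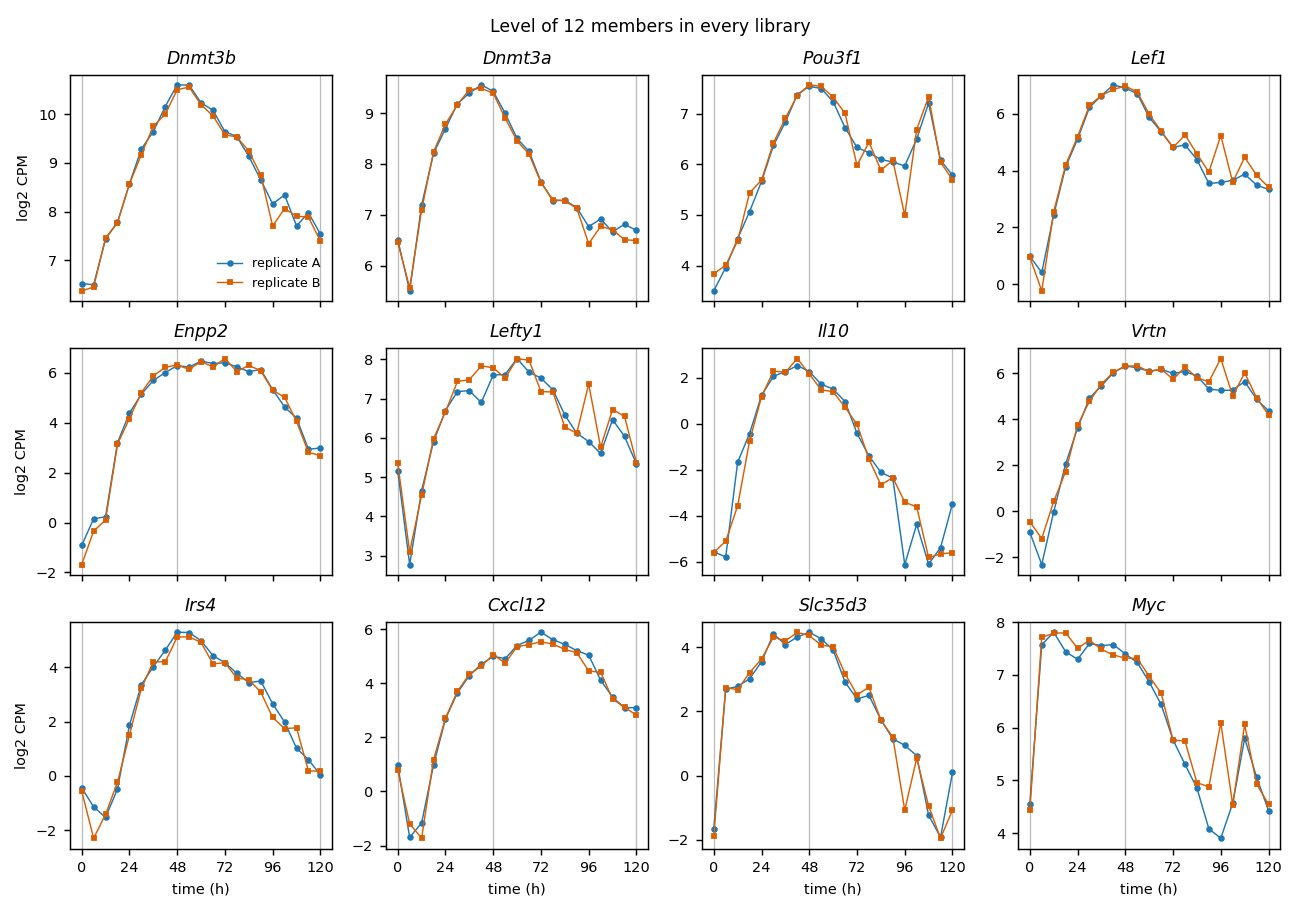
Each panel shows 1 member, with log2 CPM on the vertical axis and time in hours on the horizontal axis, as single libraries of replicate A (circles) and B (squares). Grey lines mark 0 h, 48 h and 120 h, the libraries that chose the members. Dnmt3a is highest at 42 h, Dnmt3b near 48 to 54 h and Cxcl12 at 72 h, while Myc and Slc35d3 had risen by 6 h, and Lef1, Lefty1 and Myc differ between A and B at 96 h.

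The signalling lists for Nodal, FGF, Notch, BMP and Wnt held 1 or 2 members each. For the counts of list genes from 6 h to 42 h given from here on, 10.2% of all genes were called higher and 9.25% lower. Lefty1, a secreted inhibitor of Nodal, fell from 5.16 and 5.35 log2 CPM at 0 h to 2.77 and 3.10 at 6 h, and had 6.90 and 7.83 at 42 h, 7.61 and 7.52 at 54 h and 6.04 and 6.55 at 114 h. It rose by 4.43 ± 0.30 from 6 h to 42 h (limma adjusted p = 9.26e-12), while its difference of -1.28 ± 0.30 from 54 h to 114 h missed the threshold (0.00102). It was the only member among 24 measured Nodal and TGF-beta genes, of which 6 rose and 5 fell from 6 h to 42 h. Fgf15, a secreted FGF, also dipped first, from 4.45 and 4.31 at 0 h to 2.55 and 2.66 at 6 h, and reached 6.32 and 6.57 at 42 h. It rose by 3.84 ± 0.21 (limma adjusted p = 2.26e-13) and fell from 54 h to 114 h by 1.99 ± 0.21 on the log2 scale (3.32e-08). Etv1, an ETS factor that FGF signals induce, had already risen from 4.03 and 3.95 to 5.27 and 5.13 at 6 h. Its further difference of 0.63 ± 0.13 to 42 h missed the threshold (limma adjusted p = 0.000311), and it fell by 2.30 ± 0.13 from 54 h to 114 h on the log2 scale (7.37e-13). Of the 27 FGF and ERK genes, 8 rose and 4 fell from 6 h to 42 h.

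Dll1, a ligand of Notch, had 0.45 and 0.57 log2 CPM at 6 h, 3.47 and 3.496 at 42 h, 3.59 and 3.5998 at 54 h and 1.90 and 1.97 at 114 h. It rose by 2.98 ± 0.15 (limma adjusted p = 3.94e-14) and fell by 1.66 ± 0.15 on the log2 scale (1.79e-09), and it was the only member among 17 measured Notch genes, of which 2 rose and 3 fell in the first of these contrasts. Bmpr1b, a BMP receptor, was low, with 0.32 and 0.72 log2 CPM at 42 h and 1.90 and 1.74 at 54 h. Its differences of 1.59 ± 0.47 and -1.97 ± 0.47 missed the threshold (limma adjusted p = 0.00666 and 0.00131). Among 18 BMP genes, 0 rose and 5 fell from 6 h to 42 h, and Lef1 was the only member of 32 Wnt genes, of which 8 rose and 8 fell.

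Il10, an anti-inflammatory cytokine, had the largest excess of all members. It had 0 reads in both libraries at 0 h and at 6 h. At 24 h it had 1.24 and 1.18 log2 CPM, at 42 h 2.54 and 2.84, at 54 h 1.72 and 1.48 and at 78 h -1.39 and -1.53, and at 114 h it again had 0 reads in both. Its level at 42 h was at least 46.6-fold higher than at 6 h, and at 54 h at least 23.0-fold higher than at 114 h, where the lower group is set to a floor of 3 reads per library (limma adjusted p = 6.70e-11 and 9.88e-10 on the deposited values). Cxcl12, a chemokine that guides migrating cells, peaked later. It dipped from 0.98 and 0.78 at 0 h to -1.70 and -1.19 at 6 h, had 4.70 and 4.63 at 42 h and 5.61 and 5.44 at 78 h, and was highest at 72 h in both replicates. From 6 h to 42 h it rose by 6.11 ± 0.19 (limma adjusted p = 5.65e-18), and at 114 h it was still 4.54 ± 0.19 above 6 h (8.84e-16). Of 19 measured cytokine genes, 4 rose and 3 fell from 6 h to 42 h.

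From the list of mesoderm and blood genes, Tal1 and Lmo2 were members, both known as partners in blood progenitors. Tal1 rose from -2.61 and -2.29 log2 CPM at 6 h to 1.35 and 1.75 at 42 h (4.001 ± 0.555, limma adjusted p = 1.87e-06) and fell by 3.28 ± 0.55 from 54 h to 114 h on the log2 scale (3.21e-05). The fall missed the threshold without either 54 h or either 114 h library, with adjusted p from 0.000159 to 0.00166, and the rise missed it without the 42 h library of B (0.00011). Lmo2 was flat over the middle, with 1.21 and 1.09 at 6 h, 0.84 and 1.34 at 42 h and -0.43 and 0.33 at 114 h, and passed no test. Its duplicate mean was highest at 12 h, while A was highest at 66 h and B at 72 h. Of the 10 measured genes of the list, 1 rose and 2 fell from 6 h to 42 h. Dcn, from the fibroblast list, had 46 and 22 reads at 42 h and 2 and 0 at 6 h, a ratio of 24.8 (95% counting interval 6.598 to 209), and missed the threshold (limma adjusted p = 0.000162). The other 8 measured fibroblast genes were no members. A count of 0 members was found among 12 primitive streak, 8 neuroectoderm, 11 endoderm, 11 germ cell, 8 trophoblast, 10 general pluripotency, 19 Polycomb and histone demethylase, 19 listed cadherin and EMT, and 31 axon guidance and Eph genes. Cdh9, a cadherin outside that list that was named after its values were seen, was a member.

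Members with a large excess after Il10 were Cbln4, Cyp4x1, Irs4, Slc35d3, Ndnf, Gm5380, Henmt1 and Insm1, with excesses from 4.16 to 5.60 that were measured against few reads in several of them. Cbln4, a synaptic organiser, had 0 reads in both libraries at 0 h, 92 and 69 at 48 h and 1 and 1 at 120 h. Cyp4x1, a cytochrome P450, had 1 and 0 reads at 0 h, 71 and 67 at 48 h and 1 and 1 at 120 h, and Tal1 lies 34568 bases away with 1 gene between them. Henmt1, which methylates piRNA, had 1 and 1 reads at 0 h and 38 and 34 at 48 h, but already 33 and 24 at 6 h. Its differences of 0.11 ± 0.53 from 6 h to 42 h and -1.40 ± 0.53 from 54 h to 114 h missed the threshold (limma adjusted p = 0.879 and 0.0324). The large folds of these 3 genes depend on the offset for low counts.

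Irs4, a gene on the X chromosome, encodes an adaptor of insulin and IGF receptors. In A and B it had 12 and 3 reads at 6 h, near the floor, and 820 and 517 at 42 h. It had -1.14 and -2.29 log2 CPM at 6 h, 3.36 and 3.22 at 30 h, 4.63 and 4.2004 at 42 h, 5.28 and 5.12 at 54 h, 3.78 and 3.604 at 78 h and 0.60 and 0.18 at 114 h. The pairs of 42 h and 54 h lay above the other pairs given here. It rose by 6.13 ± 0.28 from 6 h to 42 h (limma adjusted p = 9.05e-15) and fell by 4.81 ± 0.28 from 54 h to 114 h on the log2 scale (9.66e-13). Insm1, a zinc finger factor of neuroendocrine cells, was highest near 30 to 42 h and had 2.86 and 3.08 at 42 h. Gm5380 is a processed pseudogene, with 130 and 102 reads at 48 h, whose reads may be shared with other copies.

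Slc35d3, a member of the nucleotide sugar transporter family, joined the rise early and ended below where it stood at 6 h. It had 2.69 and 2.74 log2 CPM at 6 h, 4.31 and 4.45 at 42 h, 4.26 and 4.06 at 54 h, 2.49 and 2.75 at 78 h and -1.92 and -1.95 at 114 h. The difference of 1.67 ± 0.33 from 6 h to 42 h missed the threshold (limma adjusted p = 0.000163). The fall from 54 h to 114 h was -6.10 ± 0.33 (2.36e-13), and the difference from 6 h to 114 h was -4.65 ± 0.33 (1.66e-11). Ndnf, a secreted neurotrophic factor, fell sooner, from 2.07 and 2.13 at 54 h to -0.95 and -1.53 at 78 h (-3.34 ± 0.44, limma adjusted p = 4.97e-06). Other members with a large fall in that interval were Wt1, a zinc finger factor of the kidney and gonad (-2.62 ± 0.34), Capn3, a muscle calpain (-2.48 ± 0.40), and Tnfsf11, the ligand RANKL (-2.27 ± 0.22). Of these 4 members, Tnfsf11 kept its call without any 1 of the 4 libraries, while Ndnf, Wt1 and Capn3 missed the threshold without at least 3 of them (adjusted p of at most 0.00292).

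Vrtn, which controls the number of vertebrae in livestock, had the largest rise from 6 h to 24 h after Il10. It had -2.32 and -1.19 log2 CPM at 6 h, 3.62 and 3.73 at 24 h, 6.03 and 6.06 at 42 h and 4.87 and 4.94 at 114 h. The rise was 5.43 ± 0.30 to 24 h and 7.80 ± 0.30 to 42 h (limma adjusted p = 1.46e-12 and 4.37e-16), and at 114 h Vrtn was still 6.66 ± 0.30 above 6 h (5.71e-15). The difference of -1.38 ± 0.30 from 54 h to 114 h missed the threshold (0.000545). Prlr, the prolactin receptor, did fall, with a difference of -3.03 ± 0.47 from 54 h to 114 h (limma adjusted p = 1.11e-05). At 114 h Prlr was still 4.41 ± 0.47 above 6 h, where it had 4 and 0 reads (2.25e-08). Among the members past the threshold, the largest changes from 24 h to 42 h came mostly from genes with few reads at 24 h. They were Klhl14 (4.45 ± 0.56, from 3 and 3 reads), Rgs2, a regulator of G protein signals (3.44 ± 0.45), Irs4 (2.73 ± 0.28), Htr3a, a serotonin receptor (2.57 ± 0.37), and Pla2g4a, a phospholipase A2 (2.42 ± 0.39). Irs4 kept its call without any 1 of the 4 libraries, and the other 4 lost theirs without at least 2 of them, with adjusted p of at most 0.0033.

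Among the members past the threshold, the largest changes from 78 h to 114 h were in Grin2b, an NMDA receptor subunit (-4.85 ± 0.54), Slc35d3 (-4.56 ± 0.33) and Sphkap, an anchoring protein of protein kinase A (-4.31 ± 0.67). The call of Sphkap missed the threshold without any 1 of the 4 libraries (limma adjusted p from 0.000282 to 0.000964). Il10 and Clec12a, a C-type lectin receptor, had 0 reads at 114 h. Their levels at 78 h were at least 2.61-fold and 2.26-fold higher than the floor, and both calls missed the threshold without any 1 of the 4 libraries (limma adjusted p from 0.000229 to 0.00224). From 54 h to 114 h Clec12a was at least 7.43-fold lower at the later time, and Grin2b fell by 6.11 ± 0.54 on the log2 scale (limma adjusted p = 2.08e-09), with 0 and 4 reads at 114 h, which makes the size of its fall depend on the offset for low counts.

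The 10 members with the highest 48 h level per kb of exon were Dnmt3b, Lefty1, Pim2, Slc7a3, Pdzd4, Acsl4, Tle4, Myc, Sssca1 and Pou3f1, from 8.21 to 5.61 log2 CPM per kb. Of these 10, Pim2, Slc7a3, Pdzd4 and Acsl4 lie on the X chromosome. Pim2, whose promoter with 2 octamers is printed above, had 3.68 and 3.84 log2 CPM at 6 h, 7.77 and 7.97 at 42 h, 8.42 and 8.64 at 78 h and 7.14 and 7.15 at 114 h. It rose by 4.11 ± 0.13 to 42 h (limma adjusted p = 5.95e-18) and fell by 1.26 ± 0.13 from 54 h to 114 h on the log2 scale (1.49e-08). Acsl4, a ligase that activates arachidonic acid, had 8.38 and 8.25 at 42 h, and Slc7a3, a carrier of cationic amino acids, had 7.94 and 8.57. Sssca1 had 6.10 and 6.17 at 48 h, and Pdzd4, a PDZ domain protein, had 8.24 and 8.20.

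Myc, the growth-promoting transcription factor, and Tle4, a Groucho corepressor, had a plateau rather than a peak at 48 h. Myc had 4.55 and 4.43 log2 CPM at 0 h, 7.57 and 7.71 at 6 h, 7.58 and 7.38 at 42 h, 7.24 and 7.31 at 54 h and 5.06 and 4.93 at 114 h. Its 6 h and 42 h pairs overlapped, with a difference of -0.17 ± 0.36 (limma adjusted p = 0.728), and it fell by 2.28 ± 0.36 from 54 h to 114 h on the log2 scale (1.55e-05). The fall missed the threshold without any 1 of the 4 libraries, with adjusted p from 0.000283 to 0.00049. Tle4 had 8.53 and 8.26 at 6 h, 8.60 and 8.52 at 42 h and 6.90 and 6.83 at 114 h, with differences of 0.17 ± 0.15 and, from 54 h, -1.33 ± 0.15 (limma adjusted p = 0.377 and 1.51e-07). At 96 h Myc read 3.90 in A and 6.09 in B.

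Among members whose peak time agreed within 6 h between A and B, the duplicate mean was highest earliest in Pcdh17, Myc, Lmo2, Enox1 and Tle4, although each replicate of Lmo2 was itself highest late, as given above. Pcdh17, a protocadherin, was highest at 6 h with 3.62 and 3.32 log2 CPM, and the 1.47 and 1.05 at 48 h that made it a member were a shoulder on its way down. From 6 h to 114 h it fell by 4.83 ± 0.63 on the log2 scale (limma adjusted p = 5.67e-07). Enox1, an oxidase of the cell surface, had 6.80 and 6.82 at 6 h, 7.27 and 7.28 at 24 h, 5.47 and 5.60 at 54 h and 3.24 and 3.45 at 78 h. The latest were Hrasls, Foxi3, Cxcl12, Fam171b and C130071C03Rik. Hrasls was highest at 90 h but low throughout, at 0.43 and 0.02 at 48 h. Foxi3, a forkhead factor of the head ectoderm, was highest at 78 h with 4.86 and 4.81, against 4.37 and 4.24 at 48 h, and fell by 1.86 ± 0.26 from 78 h to 114 h on the log2 scale (limma adjusted p = 4.99e-06). That call missed the threshold without either 78 h library or the 114 h library of B (0.000143 to 0.00034).

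The 5 noncoding members by 48 h level were Miat, 4930526L06Rik, C130071C03Rik, AI504432 and 4833422M21Rik. 4930526L06Rik is annotated as antisense RNA, and since the strand setting of the read counting is not stated, its reads and those of the opposite gene may not be separate. It had -0.11 and -0.71 log2 CPM at 6 h, 2.77 and 3.24 at 42 h, 2.62 and 2.59 at 54 h and -0.52 and -0.37 at 114 h. C130071C03Rik, a lincRNA on chromosome 13, had 1.95 and 1.86 at 42 h and 2.26 and 1.74 at 78 h. AI504432 had 2.29 and 2.05 at 48 h, and 4833422M21Rik had 2.27 and 1.82.

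Some members lay close together in the genome (GRCm38, GENCODE vM21). On chromosome 2, the genes Gm14139, Gm14124 and Gm10130 each lie within 100 kb of the next, and 2 of their promoters are printed above. On chromosome 4, Gm13241 and Gm13245 lie 4556 bases apart and Zfp981 21101 bases further on. These sets hold near-identical copies or pseudogenes, so reads counted for one may stem from another. The midpoint between the 0 h value and the peak, which rests on the 0 h libraries that chose the members, was crossed at 6 h in all 3 genes of chromosome 2, and at 18 h, 24 h and 12 h in Gm13241, Gm13245 and Zfp981. The 3 genes of chromosome 2 passed the threshold in none of the 7 contrasts (limma adjusted p from 0.0102 to 0.988). Scn1a and Scn9a, neighbouring sodium channel genes, lie 39240 bases apart. Scn1a had 1 and 0 reads at 6 h and 38 and 32 at 42 h, a ratio of 51.0 (95% counting interval 8.86 to 2043), and was called in that contrast (limma adjusted p = 2.11e-07). It fell by 3.25 ± 0.58 from 54 h to 114 h on the log2 scale (6.71e-05). Scn9a had differences of 2.50 ± 0.62 and -2.78 ± 0.62 over the same spans, which missed the threshold (limma adjusted p = 0.00157 and 0.000656). These sets of nearby genes were named after their values were seen.

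Within a time point, the median difference between A and B over the members ran from 0.10 at 60 h to 0.60 at 96 h (log2). Over all genes the median at 96 h was 0.41. At 96 h, 47 members differed by 1 or more between A and B. The members were low genes more often than not, with 105 of 168 at a mean under 2 over all libraries. In that range the mean difference between duplicates had a median of 0.46 in members and 0.43 in all genes. Between 2 and 5 it was 0.26 and 0.19, and above 5 it was 0.17 and 0.14.

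**Figure D5:**
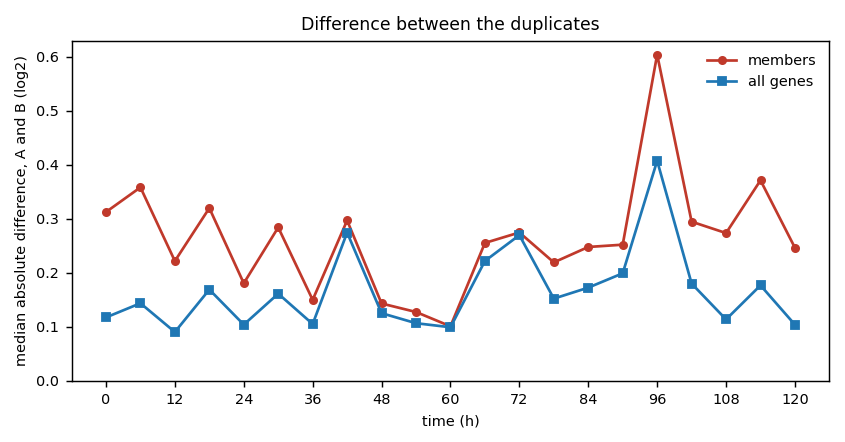
The vertical axis is the median absolute difference between replicates A and B on the log2 scale and the horizontal axis is time in hours, for the 168 members (red) and all 14296 genes (blue). Both curves are highest at 96 h, at 0.60 and 0.41.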

How the data were processed

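Stranded poly-A libraries, 2 per time point and 42 in all, were sequenced from differentiating W9.5 cells. According to the study, reads were trimmed with Trim Galore, aligned to mm10 with TopHat2 and counted per GENCODE vM2 gene with HTSeq. The study kept genes above 1 CPM in 2 or more samples. The values deposited by the authors are log2 CPM with the offset of voom, after normalization for library size with edgeR. Tool versions and the strand setting of HTSeq are not given in the sources used here. The values convert back to whole reads (largest departure 2.91e-08 reads), and all read numbers quoted were obtained in this way. Depth was 10120972 to 51652434 counted reads per library (median 29692082), and the offset sets the value of a gene with few reads. Floors and intervals cover counting error only.

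Samples were grouped by the time point and replicate letter in the labels. Annotation came from GENCODE vM21 (GRCm38), which holds the identifiers of 14177 of the 14296 genes. Levels per kb use the exon length of this annotation. Members were found from the 0 h, 48 h and 120 h libraries. limma 3.58.1 in R 4.3.3 (lmFit with time points as a factor, eBayes with trend) was run on the 36 other libraries over all genes, with 18 residual degrees of freedom and a Benjamini-Hochberg adjusted p under 0.0001 within each contrast, the threshold of the study. The code was tested on simulated data. Promoter windows came from RefSeq tables, and only the 250 bases before the start were searched. Python 3.11.15, numpy 2.4.6, pandas 2.3.3 and matplotlib 3.10.9 were used for the rest.

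Named genes were every member in a gene list, the 10 members with the largest excess, the 10 with the highest 48 h level per kb, the 3 genes nearest each side of the threshold, the 5 members with the largest difference past the threshold in each contrast, the 5 noncoding members with the highest 48 h level, and the 5 earliest and 5 latest members whose peak agreed within 6 h in A and B. Others are said to be named after their values were seen. Some genes that the rule names are not reported here. The members and the gene lists were chosen with earlier results of these data known. Alternatives tried were a replicate block, all 42 libraries, no trend, voom weights, an offset of 2 reads, median-of-ratios size factors, a filter on low genes, other thresholds, levels and time points for the rule, smoothed peak times and leaving out each library.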

Additional observations from a re-analysis of the deposited data

How the results depend on the processing

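A less strict threshold of adjusted p under 0.05 raised the number of members called to 108 (24 h minus 6 h), 81 (42 h minus 24 h), 71 (78 h minus 54 h), 116 (114 h minus 78 h) and 113 (114 h minus 6 h). These counts of calls, and those of the other settings below, take both directions together. The share of all genes called at these settings is not reported here, so the counts do not show how far the members stand out. With voom weights, 33 members were called from 6 h to 114 h in place of 59. With 1 library left out at a time, the counts ran from 13 to 17 (42 h minus 24 h, 28 with all), from 7 to 11 (78 h minus 54 h, 20 with all) and from 30 to 43 (114 h minus 78 h, 58 with all). Time points with 1 library left were assumed to vary like the others. The rule itself found 394 genes at an excess of 1.0 and 78 at 2.0. The cause of these shifts was not tested, beyond the lower or higher bar and the fewer libraries. With a replicate block, 61, 32, 104, 26, 63, 118 and 65 members were called in the 7 contrasts in their order in time (24 h minus 6 h, 42 h minus 24 h, 42 h minus 6 h, 78 h minus 54 h, 114 h minus 78 h, 114 h minus 54 h, 114 h minus 6 h), and none of these differs by over 1.5 times from the count without it. The letters A and B are not stated to mark a shared batch. Deviations from the time point means correlated at 0.11 on average among libraries sharing a letter, from -0.37 to 0.60. Of 153 such pairs, 76.5% were positive and 82 exceeded 0.1. The main model had no term for the letter all the same, and the counts with one are those of the replicate block above. Of the genes with printed tests, 0 changed direction under the alternatives run. With voom weights, 75 of these tests kept their status, 4 lost their call and 2 gained one. With an offset of 2 reads these numbers were 77, 2 and 2, and with all 42 libraries 78, 2 and 1. A replicate block, no trend and the size factors each left 81 tests as they were. Median-of-ratios size factors moved the median of all genes by at most 0.04. Depth limits members with few reads: 39 had 0 to 3 reads in a 0 h library and 14 in a 120 h library.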
